A study of Mus musculus with 5 samples.

Results

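The transcripts described here are those of 10 genes for pattern recognition receptors of myeloid cells, Cd14, Tlr2, Tlr4, Fpr1, Fpr2, Clec4d, Clec4e, Clec7a, Trem1 and Trem3. They were picked by name from a count table of 52550 mouse genes, and all 10 were found. The counts come from 5 libraries of KL cells, the Lin-cKit+Sca1- population of bone marrow that holds the committed myeloid progenitors. In 3 libraries the mice carried scl-Cre-ERT + and Bcorfl/y (hereafter BcorΔE9-10), an X-linked floxed allele that loses exons 9 and 10, and in 2 they carried scl-Cre-ERT + and Bcorwt/y (hereafter BcorWT). All mice, controls included, carried the Cre transgene per the labels. They received tamoxifen at 1 mg per day for 5 days at 3 to 6 months of age. Cells were collected 20 weeks after tamoxifen. Cre was driven by a Tal1 (SCL) transgene active in haematopoietic stem cells, so progenitors carry the deletion only where they descend from a recombined stem cell. The question was how the levels of these receptor transcripts compare between KL cells with and without intact Bcor, a subunit of a variant Polycomb repressive complex.

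Pattern recognition receptors let myeloid cells sense conserved molecules of microbes and of damaged cells. Toll-like receptors and the co-receptor CD14 bind lipopolysaccharide and bacterial lipoproteins and signal through the adaptor MyD88, formyl peptide receptors are G protein-coupled receptors that guide neutrophils towards bacterial peptides, C-type lectin receptors bind fungal and mycobacterial sugars and glycolipids and signal through Syk and Card9, and TREM receptors amplify these responses through the adaptor DAP12. Many of these receptors increase as granulocytes and monocytes mature, and neutrophils and monocytes carry them at high levels.

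The libraries held between 5998924 and 8303999 counts assigned to genes. Levels are given as CPM, counts relative to a library size of 1e+06 after scaling by the trimmed mean of M values (TMM), and because each read comes from the 3′ end of a transcript they are compared between libraries and not between genes. The 2 BcorWT libraries stood further apart from each other (chi-square of 10.8 per gene) than any pair of BcorΔE9-10 libraries (5.69 to 6.57). Bcor itself had a log2 fold change of 0.78 (SE 0.22, adjusted p = 0.0313 by limma), but 3′ reads do not cover the deleted exons, so this does not check the genotype. Of the surface genes that the sort selects against, Ly6a and Cd5 had at most 8 counts in any library, whereas Ly6g and Itgam were present. The labels do not say that each library came from a separate mouse, so the p-values measure only the spread between these samples.

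All 10 receptor genes had counts in every library and passed the expression filter. The C-type lectin receptor genes Clec4d and Clec4e were lower in BcorΔE9-10 KL cells, at 0.427 and 0.535 times the BcorWT level, and no other member passed the threshold of an adjusted p under 0.05. A negative log2 fold change was measured for 8 of the 10 genes and a positive one for Cd14 and Trem3. The median over the members was -0.36 on the log2 scale, beside 0.0043 over all 11766 genes tested. The 2 calls make 20% of the members, where 10.1% of all genes tested were called (1189 genes). By direction, 2 of 10 members were called lower beside 4.09% of all genes (481), and 0 of 10 were called higher by limma beside 6.02% (708). At an unadjusted p under 0.05, limma passed 5 members and 2973 of all genes. With total counts alone as the scaling, which moved the median of all genes to 0.15, the same split over all genes was 1210 higher and 197 lower, and no member changed sign. In CPM, 4 members were lower in every BcorΔE9-10 library than in either BcorWT library, beside 20.3% of all genes, and 1 was higher, beside 22.6%. With so few libraries and members these shares are given as a description. In bulk samples, fewer cells of a type and less RNA per cell cannot be told apart.

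**Figure D1:**
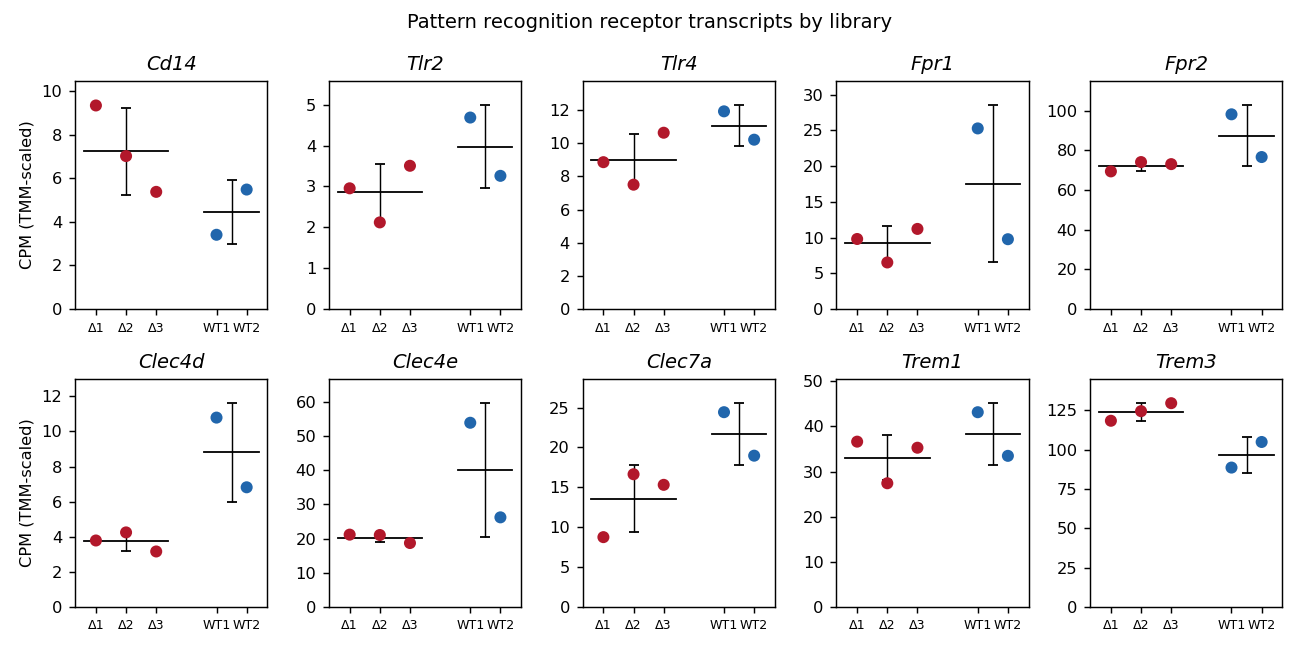
CPM (vertical axes, TMM-scaled, each from 0) of the 10 receptor genes in the 3 BcorΔE9-10 libraries (red, Δ1 to Δ3) and the 2 BcorWT libraries (blue, WT1 and WT2), with the mean (line) and SD (bar) of each group. Clec4d, Clec4e, Clec7a and Fpr2 are lower in all BcorΔE9-10 libraries, Trem3 is higher in all of them, and Fpr1 and Clec4e stand out in WT1 at 25.3 and 54.0 CPM.

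The C-type lectin receptor genes lie on chromosome 6, where Clec4d (chr6:123262111-123275265, plus strand, mm10) and Clec4e (chr6:123281789-123289870, minus strand) are neighbours with 6523 bases between them. Clec4d encodes MCL, which pairs with Mincle, the product of Clec4e and a receptor for mycobacterial glycolipids. Clec4d was measured at 3.78, 4.24 and 3.16 CPM in libraries 1, 2 and 3 of BcorΔE9-10, and at 10.8 and 6.82 CPM in libraries 1 and 2 of BcorWT. The groups did not overlap, and the means were 3.73 ± 0.546 (SD, n = 3) and 8.80 ± 2.81 (SD, n = 2). The log2 fold change was -1.23 (SE 0.34, 95% interval -1.94 to -0.51, adjusted p = 0.0287 by limma). These levels rest on 26 to 32 counts per BcorΔE9-10 library and on 76 and 46 counts for BcorWT. Without BcorΔE9-10 library 1, 2 or 3 the log2 fold change stayed at -1.25, -1.31 and -1.12, but the adjusted p by limma was 0.0688, 0.0618 and 0.111. The log2 fold change of Clec4d was -0.90 without BcorWT library 1 and -1.55 without BcorWT library 2, so its size depended on the control kept.

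Clec4e was measured at 21.2, 21.1 and 18.7 CPM in BcorΔE9-10 and at 54.0 and 26.2 CPM in BcorWT. The BcorΔE9-10 libraries lay close together and below both controls, which differed 2.06-fold from each other. The exact Poisson 95% intervals of the controls, 48.7 to 59.7 and 22.5 to 30.4 CPM, did not overlap, so the gap between them was larger than counting error. Its log2 fold change was -0.90 (SE 0.24, 95% interval -1.42 to -0.39, adjusted p = 0.0261 by limma). Without BcorWT library 1 it was -0.38 (adjusted p = 0.388), and without BcorWT library 2 it was -1.41 (adjusted p = 2.3e-05). The call was also lost without BcorΔE9-10 library 2 (adjusted p = 0.0646) or library 3 (0.0967), at log2 fold changes of -0.93 and -0.85.

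Because Clec4d and Clec4e are adjacent and were the members called, the 250 bases before the start of each are shown, 5′ to 3′ on the strand of the gene, from RefSeq on GRCm38.p6 (chr6:123261857-123262106 for Clec4d and chr6:123289872-123290121 for Clec4e). Capitals mark matches to GAGGAA, a short core of sites for the myeloid factor PU.1, or its reverse complement, and to TATAAA, the TATA box.
Clec4d: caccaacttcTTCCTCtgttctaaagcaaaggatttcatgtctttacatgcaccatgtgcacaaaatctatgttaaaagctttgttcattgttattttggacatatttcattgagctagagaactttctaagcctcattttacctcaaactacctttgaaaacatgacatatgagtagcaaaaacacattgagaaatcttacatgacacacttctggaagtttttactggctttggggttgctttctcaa
Clec4e: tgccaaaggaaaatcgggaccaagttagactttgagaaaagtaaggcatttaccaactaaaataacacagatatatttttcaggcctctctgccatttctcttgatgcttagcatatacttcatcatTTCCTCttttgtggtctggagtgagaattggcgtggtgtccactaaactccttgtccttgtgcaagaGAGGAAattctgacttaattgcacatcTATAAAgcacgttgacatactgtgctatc
Clec4e had a TATAAA match with its first base 29 bases before the start, and Clec4d had none. TATAAA was present in 12.4% of 32851 RefSeq mouse windows of this length, both strands searched, and GAGGAA in 23.3%. The table held 8 windows of 7 members, of which 3 contained TATAAA and 6 contained GAGGAA. Clec7a had 2 overlapping windows that hold the same GAGGAA match, so the 6 count that site in both. The longer PU.1 site GAGGAAGT (2.44% of all windows), the C/EBP palindrome TTGCGCAA (0.164%) and the AP-1 site TGANTCA (6.75%) matched none of the 8, and the NF-kB site GGGANTTCC (1.43%) matched only that of Tlr2. The 2 short motifs were added after the sequences had been seen, and a match is a description of letters, not a bound site.

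Clec7a (chr6:129461591-129472779, minus strand), which encodes the beta-glucan receptor Dectin-1, was measured at 8.75, 16.6 and 15.3 CPM in BcorΔE9-10 and at 24.4 and 19.0 CPM in BcorWT. All BcorΔE9-10 libraries were below both controls, with library 1 the lowest. The log2 fold change of -0.75 (SE 0.25, 95% interval -1.28 to -0.22) did not pass the threshold (adjusted p = 0.0709 by limma). It was -0.44 without BcorΔE9-10 library 1 (adjusted p = 0.284), -0.57 without BcorWT library 1 (0.324) and -0.92 without BcorWT library 2 (0.0353), and a correction for the GC content of transcript ends (hereafter GC correction) also brought it past the threshold (-0.90, adjusted p = 0.0342). GENCODE M21 lists Clec7a as a polymorphic pseudogene, a class for genes that are intact in some strains only.

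The formyl peptide receptor genes lie on chromosome 17 with 3883 bases between them. Fpr1 (chr17:17876471-17883940, minus strand), the high-affinity receptor for bacterial formyl peptides, was measured at 9.81, 6.53 and 11.2 CPM in BcorΔE9-10 and at 25.3 and 9.78 CPM in BcorWT. BcorWT library 2 lay within the range of the BcorΔE9-10 libraries and BcorWT library 1 far above it, with exact Poisson 95% intervals of 7.56 to 12.4 and 21.7 to 29.3 CPM for the controls. Its log2 fold change was -0.78 (SE 0.34, adjusted p = 0.165 by limma). It was -0.09 without BcorWT library 1 (adjusted p = 0.926) and -1.44 without BcorWT library 2 (adjusted p = 0.000816), so the value rests on which control is used.

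Fpr2 (chr17:17887824-17893952, plus strand), which recognises a wider range of peptides and lipids, was steadier. It was measured at 69.4, 74.1 and 73.0 CPM in BcorΔE9-10 and at 98.1 and 76.6 CPM in BcorWT. The groups did not overlap, but BcorWT library 2 was close to the BcorΔE9-10 libraries, and the log2 fold change of -0.27 (SE 0.14, 95% interval -0.56 to 0.02) did not pass the threshold (adjusted p = 0.233 by limma). Fpr2 shares exon sequence on the same strand with Fpr3, which had no counts in any library, and how reads in both genes were assigned is not given in the sources used here. The other 4 formyl peptide receptor genes looked at, Fpr-rs3, Fpr-rs4, Fpr-rs6 and Fpr-rs7, also had no counts in any library.

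The TREM genes are adjacent on chromosome 17, Trem1 at chr17:48232768-48246924 and Trem3 at chr17:48247777-48258841, both on the plus strand with 852 bases between them. Both encode receptors that amplify inflammatory responses through DAP12, and they lay on opposite sides of 0. Trem3 was measured at 118, 125 and 130 CPM in BcorΔE9-10 and at 88.6 and 105 CPM in BcorWT. Every BcorΔE9-10 library exceeded both controls, with means of 124 ± 5.60 (SD, n = 3) and 96.8 ± 11.5 (SD, n = 2). The log2 fold change of 0.36 (SE 0.12, 95% interval 0.10 to 0.63) did not pass the threshold (adjusted p = 0.0753 by limma). It was 0.24 without BcorWT library 1 (adjusted p = 0.425) and 0.49 without BcorWT library 2 (0.0393), and with total counts alone it was 0.51 (0.0200), with the median of all genes moved as above.

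Trem1 was measured at 36.6, 27.4 and 35.3 CPM in BcorΔE9-10 and at 43.2 and 33.5 CPM in BcorWT. The groups overlapped, and the log2 fold change was -0.20 (SE 0.18, adjusted p = 0.523 by limma). Of the 30-base words in the last 300 bases of the Trem1 transcript, 5.90% occur in other genes, so some of its reads may not map uniquely. The ratio of Trem3 to Trem1 counts was 3.23, 4.54 and 3.67 in BcorΔE9-10 and 2.05 and 3.13 in BcorWT, without overlap. The exact permutation test of this ratio, two-sided, gave p = 0.2, the smallest that 3 against 2 libraries allow, and 0.6 after Benjamini-Hochberg adjustment over the 3 neighbour ratios computed. The ratios of Clec4e to Clec4d and of Fpr1 to Fpr2 gave exact permutation p-values of 0.4 and 0.6. These pairs were chosen after their values had been seen.

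The lipopolysaccharide and lipoprotein receptors did not pass the threshold. Tlr4 (chr4:66827584-66930284, plus strand), the lipopolysaccharide receptor, was measured at 8.86, 7.51 and 10.6 CPM in BcorΔE9-10 and at 11.9 and 10.2 CPM in BcorWT. The groups overlapped, at a log2 fold change of -0.29 (SE 0.25, adjusted p = 0.514 by limma). Tlr2 (chr3:83836272-83841767, minus strand), the lipoprotein receptor, was measured at 2.96, 2.12 and 3.51 CPM in BcorΔE9-10 and at 4.69 and 3.26 CPM in BcorWT. It rests on 13 to 33 counts per library, and its 95% interval of -1.32 to 0.44 around -0.44 leaves a change of either sign possible at this depth (adjusted p = 0.551 by limma).

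Cd14 (chr18:36725074-36726736, minus strand), the co-receptor that hands lipopolysaccharide to TLR4, had the highest log2 fold change of the members, 0.70 (SE 0.38, 95% interval with its lower end at -0.09), and did not pass the threshold (adjusted p = 0.259 by limma). Its levels were 9.34, 7.02 and 5.38 CPM in BcorΔE9-10 and 3.41 and 5.48 CPM in BcorWT. BcorΔE9-10 library 3 lay just under BcorWT library 2, so the groups overlapped.

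**Figure D2:**
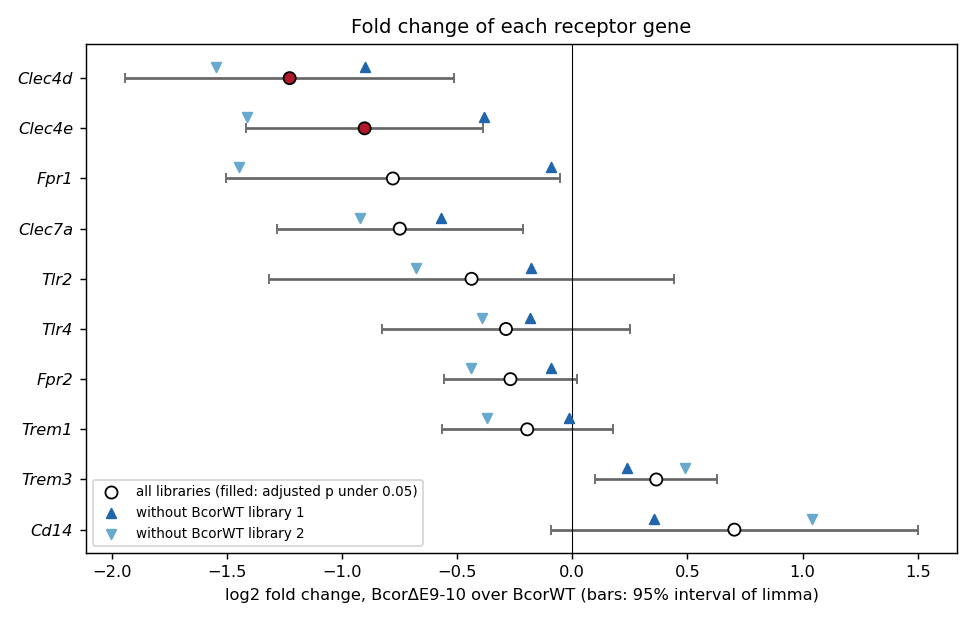
Log2 fold change of each receptor gene (horizontal axis, BcorΔE9-10 over BcorWT), as circles with the 95% interval of limma over all 5 libraries, filled where the adjusted p was under 0.05, and as triangles without BcorWT library 1 (upward) or 2 (downward). The value for Fpr1 moves from -0.09 to -1.44 and that for Clec4e from -0.38 to -1.41 with the control left out, whereas no gene crosses 0.

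The receptor transcripts differed between the control libraries themselves. Each of the 8 members with a negative fold change was higher in BcorWT library 1 than in BcorWT library 2, and Cd14 and Trem3 were lower in it, where 47.6% of all genes tested were higher in library 1. On the log2 scale with each gene centred on its own mean, the members averaged -0.14, -0.22 and -0.10 in BcorΔE9-10 and 0.43 and 0.03 in BcorWT. Without BcorWT library 1, no member passed the threshold of limma, with 558 genes called in all, and the median of the members was -0.14. Without BcorWT library 2, 5 members passed it (Clec4d, Clec4e, Clec7a and Fpr1 lower, Trem3 higher) with 1200 genes called in all, and the median was -0.56. Each of these fits takes the lone control to vary like the other libraries.

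Several markers of granulocytes moved with these values. The 13 neutrophil markers looked at summed to 150100 to 174000 CPM in BcorΔE9-10 and to 216900 and 229300 CPM in BcorWT, and 7 of the 13 were lower in BcorΔE9-10, among them the calprotectin gene S100a8 (log2 fold change -0.61, adjusted p = 8.0e-05 by limma) and S100a9 (-0.41, adjusted p = 0.00208). S100a8 and S100a9 together made up most of the summed CPM. Camp, another of the most abundant, had a fold change of the opposite sign and was not called (0.25, adjusted p = 0.114 by limma). Within the list the controls differed by gene. Of 3 late neutrophil genes singled out after their values were seen, Mmp8 was measured at 322, 305 and 277 CPM in BcorΔE9-10 and at 804 and 277 CPM in BcorWT. Retnlg and Mmp9 were 3.19 and 2.12 times as high in BcorWT library 1 as in library 2, beside 2.59 times for Fpr1 and 2.06 times for Clec4e. Cxcr2 was also higher in BcorWT library 1 (4.83 against 2.22 CPM). The same ratio was 1.07 to 1.23 for S100a8, S100a9, Ngp, Ltf, Lcn2, Cd177 and Il1b, and it was 0.775 for Camp and 0.602 for Csf3r, which were higher in BcorWT library 2. The summed neutrophil markers stayed above all BcorΔE9-10 libraries in BcorWT library 2 as well. Ly6g, which encodes an antigen the sort excludes, was lower in BcorΔE9-10 (-0.97, adjusted p = 0.00204 by limma). Itgam, which encodes CD11b, also excluded by the sort, had the opposite sign, at 119.6, 121.6 and 132.3 CPM in BcorΔE9-10 and 96.42 and 96.46 CPM in BcorWT, and was not called (0.37, adjusted p = 0.0618 by limma).

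The 12 monocyte and macrophage markers summed to 1166 to 1305 CPM in BcorΔE9-10 and to 1538 and 1548 CPM in BcorWT, and 1 of 10 tested was lower, Ly6c2 (-0.36, adjusted p = 0.0148 by limma), which made up most of the sum. Without Ly6c2 the other 11 markers summed to 229.9, 298.3 and 246.5 CPM in BcorΔE9-10 and to 319.2 and 290.6 CPM in BcorWT, and the groups overlapped. The defining macrophage gene Fcgr1 had at most 4 counts in any library. Markers of eosinophils (253 to 419 against 726 and 862 CPM, 3 of 4 tested lower) and of basophils and mast cells (353 to 460 against 604 and 781 CPM, 4 of 8 lower and 1 higher) were lower in sum in every BcorΔE9-10 library. Prg2 made up most of the eosinophil sum. The 8 KL progenitor markers overlapped in sum (7218 to 8506 against 7662 and 8474 CPM), with Kit (1.43, adjusted p = 9.8e-05) and Myb (0.41, adjusted p = 0.0201) higher by limma. Mpo made up most of that sum, at 5534, 4292 and 4986 CPM in BcorΔE9-10 and 5183 and 5294 CPM in BcorWT. Erythroid (39.0 to 147 against 15.1 and 35.9 CPM), lymphoid (15.4 to 27.6 against 8.74 and 19.0 CPM) and dendritic cell markers (16.0 to 22.7 against 9.04 and 24.6 CPM) were low, with 1 call, Car1, higher. What these cell types, neutrophils included, contribute to the receptor values was not tested.

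**Figure D3:**
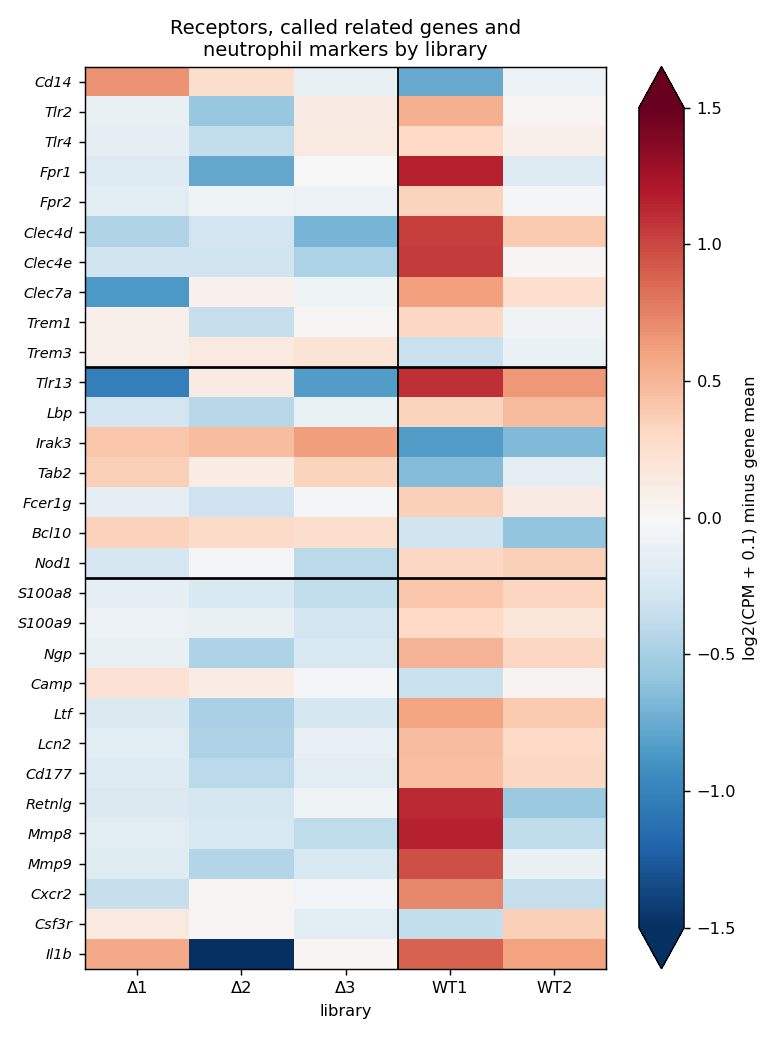
Log2(CPM + 0.1) minus the mean of the gene (colour, saturated beyond 1.5) in each library (columns) for the 10 receptor genes (top), the 7 called related genes (middle) and the 13 neutrophil markers (bottom). Fpr1, Clec4d and Clec4e are highest in WT1 as are Retnlg, Mmp8 and Mmp9, and for Clec4d, Clec4e, Irak3, Bcl10 and Lbp both controls lie on the same side of all BcorΔE9-10 libraries.

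Around the receptors, 88 genes of the same families and their signalling routes were looked at, of which 62 passed the filter and 9 had no counts in any library. Of the 62, 3 were higher and 4 lower, 11.3% called beside 10.1% of all genes. In Toll-like receptor signalling 2 of 14 genes were higher and the rest were not called. Irak3, which encodes IRAK-M, an inhibitor of signalling downstream of Toll-like receptors, was measured at 49.1, 50.4 and 56.5 CPM in BcorΔE9-10 and at 20.5 and 23.1 CPM in BcorWT. It rose 2.39-fold (log2 fold change 1.26, SE 0.17, adjusted p = 0.000249 by limma), and both controls lay far below all BcorΔE9-10 libraries. Its adjusted p by limma stayed at or below 0.00287 whichever library was left out, without BcorWT library 1 included (1.16). Tab2, an adaptor for the kinase TAK1, was also higher (0.68, adjusted p = 0.0157), a call lost without BcorWT library 1 (0.42, adjusted p = 0.212) or BcorΔE9-10 library 3 (0.63, adjusted p = 0.0612), and with the GC correction (0.51, adjusted p = 0.0586).

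Among partners of the Toll-like receptors, 1 of 6 tested was lower. Lbp, which encodes the protein that delivers lipopolysaccharide to CD14, was measured at 119, 108 and 135 CPM in BcorΔE9-10 and at 183 and 202 CPM in BcorWT. It fell by 0.67 on the log2 scale (SE 0.12, adjusted p = 0.00245 by limma), without overlap, and its adjusted p was at most 0.0119 whichever library was left out. Ly96, which encodes the MD-2 partner of TLR4, had at most 7 counts in any library and was not tested. Of the other Toll-like receptor genes 5 of 10 were tested and 1 was lower, Tlr13, a sensor of bacterial ribosomal RNA, at 1.42, 3.26 and 1.64 CPM in BcorΔE9-10 and 6.53 and 4.74 CPM in BcorWT. For Tlr13 the log2 fold change was -1.55 (SE 0.44, adjusted p = 0.0334 by limma), on 12 to 46 counts. That call was lost without BcorWT library 1 (-1.33, adjusted p = 0.171) and without BcorΔE9-10 library 1 or 3 (adjusted p = 0.118 and 0.115), and with edgeR (0.0523) or DESeq2 (0.0651). Tlr8, Tlr9 and Tlr11 had no counts in any library.

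On the route used by the C-type lectin and TREM receptors, 1 of 9 genes was higher and 1 lower. Fcer1g, the adaptor chain through which Mincle signals, was measured at 200, 179 and 219 CPM in BcorΔE9-10 and at 284 and 241 CPM in BcorWT. Its log2 fold change was -0.39 (SE 0.12, adjusted p = 0.0454 by limma), close to the threshold. The call was lost when BcorΔE9-10 library 1, 2 or 3 was left out (adjusted p = 0.116, 0.115 and 0.0531) and without BcorWT library 1 (-0.28, adjusted p = 0.295), and by limma with the GC correction (0.0851), sample quality weights (0.0626) or total counts alone (-0.25, adjusted p = 0.213). Bcl10, which joins Card9 and Malt1 in the complex that activates NF-kB, was higher at 53.1, 51.1 and 50.5 CPM against 33.9 and 27.7 CPM (log2 fold change 0.75, SE 0.16, adjusted p = 0.00661), and stayed past the threshold of limma whichever library was left out. The GC correction lowered it to 0.48 and ended the call (adjusted p = 0.0711 by limma). Syk (-0.20) and Tyrobp (-0.17), which encodes DAP12, were not called.

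Of 16 cytosolic sensors and partners tested, 1 was lower: Nod1, a receptor for bacterial peptidoglycan fragments, at 22.8, 26.9 and 20.6 CPM in BcorΔE9-10 and 33.8 and 35.0 CPM in BcorWT. For Nod1 the log2 fold change was -0.58 (SE 0.17, adjusted p = 0.0423 by limma). It passed the threshold without BcorΔE9-10 library 2 (adjusted p = 0.0445) and not without BcorΔE9-10 library 1 or 3 (0.105 and 0.146) or BcorWT library 1 or 2 (0.109 and 0.107), nor with DESeq2 (0.0552), the GC correction (0.0782), no expression filter (0.0659) or total counts alone (0.124). Of the other C-type lectin receptor genes (5 tested), other TREM family genes (5) and scavenger receptor genes (2), none was called by limma. Clec12a, an inhibitory lectin receptor, had a log2 fold change of 0.10, B430306N03Rik (Treml6) of -0.38 and the scavenger receptor gene Scarb1 of 0.26.

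**Figure D4:**
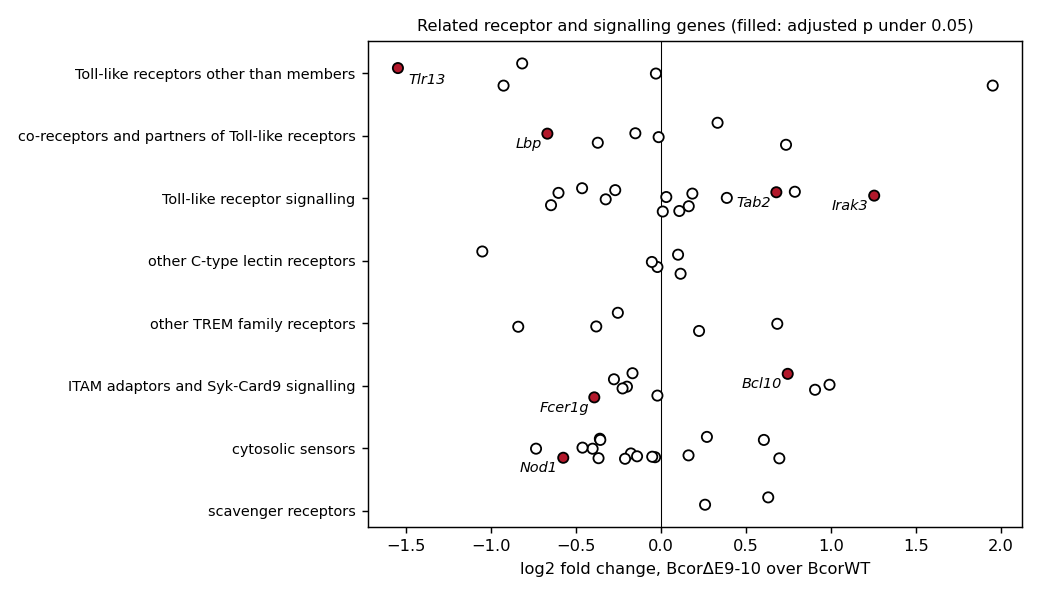
Log2 fold change (horizontal axis, BcorΔE9-10 over BcorWT) of the 62 tested related genes, one point a gene, by family or signalling route (rows), filled and named where the adjusted p of limma was under 0.05. Irak3 at 1.26 and Tlr13 at -1.55 are the outermost of the 7 called genes.

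The tested genes whose profile over the 5 libraries lay nearest to the mean of the members, among 3416 genes whose log2 CPM averaged 5 or more, were Limd2, Tecr and Cwc27, at a mean absolute distance of 0.023, 0.026 and 0.030 on the log2 scale. Their log2 fold changes were -0.36, -0.34 and -0.34, and Limd2 passed the threshold (adjusted p = 0.0458 by limma). Fold changes near that of the members follow from choosing these genes on the same 5 libraries, so they are a description only.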

How the data were processed

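KL cells were sorted from bone marrow and QuantSeq 3′ mRNA libraries were sequenced. Per the submitters' processing notes and the study's methods, reads were demultiplexed with bcl2fastq 2.17.1.14, trimmed with cutadapt, aligned to mm10 with HISAT2 and counted per gene with Subread 1.5.0-p3. Strand and multi-mapping options are not given in the sources used here. The authors deposited a table of raw counts, with a column for each library, beside a gene length that the authors' counting gave and that was not used for levels. Fold changes were fitted with limma 3.58.1 on voom values in R 4.3.3, with TMM factors and filterByExpr of edgeR 4.0.16 (minimum count 10, minimum total 15), leaving 11766 genes. P-values were two-sided and Benjamini-Hochberg adjusted over these, with a threshold of 0.05. CPM used TMM-scaled library sizes.

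Alternatives were the quasi-likelihood test of edgeR, DESeq2 1.42.0, RLE size factors, total counts alone, other filters, sample quality weights, a replicate term, a GC correction (lowess span 0.3 on the last 300 bases of a transcript), and each library left out. The GC correction with a replicate term and the limma test with 1 BcorWT library were added after the data had been seen. Totals of 5998924 to 8303999 counts limit precision for genes of low count; Poisson intervals cover counting error only. In counts simulated from these libraries, 154 of 192 changed genes among 11485 tested were found, with 14 false calls. These totals are not split by size of fold change. How often genes with fold changes as small as those of most members are found was not tested.

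Gene positions were those of the deposited count table, and names were matched by gene identifier. GENCODE M21 (GRCm38) held all 52403 genes with a symbol out of 52550, and 95.2% of them had the same start and end there. Promoter windows of 250 bases were taken from RefSeq for 7 of the 10 members. The members, related genes and marker lists were chosen with earlier results of these data known. Named genes were all members, the called genes of each related list or else its most abundant gene, at most 3 abundant markers per list, and the 3 genes of nearest profile; others were chosen after their values were seen. Some marker genes are not reported here.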

Additional observations from a re-analysis of the deposited data

How the results depend on the processing

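In the 10 alternatives that kept all libraries, Clec4d (log2 fold change -1.44 to -1.08, adjusted p = 0.0113 to 0.0445) and Clec4e (-1.16 to -0.76, adjusted p = 2.0e-06 to 0.0455) passed the threshold each time, by limma, edgeR and DESeq2, and no member changed sign in these or in the fits without a library. The number of members past the threshold was 2 to 4. The GC correction added Clec7a (3 members) and lowered the related genes called from 7 to 3, and total counts alone added Trem3 (adjusted p = 0.0200). With a replicate block, limma called 4 members, Fpr1 and Clec7a added (adjusted p = 0.00335 and 0.0163), and 1454 genes in all, while Nod1 and Tlr13 lost their calls (adjusted p = 0.123 and 0.0862); with the block and the GC correction together it called 4 members and 3 related genes (Nod1 0.218, Tlr13 0.125). Libraries with the same number deviated together only weakly (correlations of 0.0573 and 0.0667), and the labels do not say that a number marks a shared litter or day. Leaving out each library in turn gave 0 to 5 members, 3 to 9 related genes and 558 to 1200 genes in all. Irak3 and Lbp passed the threshold in all 10 alternatives and in all 5 fits without a library. Bcl10 passed it in 8 of the 10, Tab2 in 8, Fcer1g in 7, Tlr13 in 6 and Nod1 in 4. The causes were not tested. Members with few counts, such as Tlr2, have wide intervals at this depth.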
